A study of Mus musculus with 18 samples.

Results

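The aminoacyl-tRNA synthetases are described here as 37 of the 12547 genes in the deposited expression table, taken by symbol alone: every gene named with a single letter followed by ars (with or without a final 1 or 2), the gene pair Farsa and Farsb, and Eprs. Of these, 20 encode cytosolic enzymes or their subunits and 17, whose symbols end in 2, encode mitochondrial enzymes. All 37 were tested in every comparison and no filter on low values was applied. RNA was sequenced from mouse CD4 T cells that carried an Id3 knockout (KO) or were wild-type (WT). The cells had been isolated as naive cells, stimulated by anti-CD3/CD28 beads and cultured under T helper 1 conditions (IL12, IL2 and anti-IL4), which all groups share. Poly(A) RNA went into directional libraries numbered as 3 sets, called 3, 5 and 6, with 3 libraries of each genotype in each set, hence 6 groups and 18 libraries. The sample labels do not say what separates the sets, whether the replicates came from separate mice, or how old the mice were. Nor do they say how the Id3 allele was made. The p-values below therefore measure the spread between these libraries, which may be technical. In the names of the authors' deposited comparisons set 3 carries a numeric tag of its own, and sets 5 and 6 share another. A further comparison there pools sets 5 and 6. The tags have no unit, and what they stand for is not stated.

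An aminoacyl-tRNA synthetase joins an amino acid to its matching tRNA, the step at which the genetic code is read into chemistry. Animal cells keep separate cytosolic and mitochondrial enzymes for most amino acids, both encoded in the nucleus, while the genes Gars (glycine) and Kars (lysine) each supply both compartments. Several cytosolic enzymes are held together in a multisynthetase complex by the scaffold proteins Aimp1, Aimp2 and Eef1e1, and uncharged tRNA is sensed by the kinase Gcn2 (gene Eif2ak4), which acts through the transcription factor ATF4. T cells that have been activated build protein at a high rate, and ATF4 is known to drive many cytosolic synthetase genes.

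The 250 bases before the transcription start were available from RefSeq (mouse build GRCm38.p6) for 27 of the 37 genes, 13 cytosolic and 14 mitochondrial. A search of both strands for TGATGNAA, the core of the composite element that ATF4 dimers bind, found it in Aars, Gars and Tars, which is 11.1% of the 27 against 3.45% of all 32851 windows of this length. CACGTG, the E-box bound by Myc, was found in Aars, Farsb and Iars, which is 11.1% against 6.02% of all windows. CAGGTG and CAGCTG, the E-boxes preferred by the E proteins that Id3 keeps from DNA, were present in 14.8% and 7.41% of the 27 against 17.2% and 13% of all windows. CAGGTG was in Fars2, Lars2, Tars2 and Wars2, and CAGCTG in Tars and Yars2. The following windows belong to genes on which the results turn and are written 5′ to 3′ on the gene's strand. Capitals mark TGATGNAA (read on the opposite strand) in Aars, Gars and Tars, CAGGTG in Tars2 and CACGTG in Farsb. Farsa, the partner of Farsb, held none of the 4 motifs.
Aars promoter, chr8:111033592-111033841, plus strand: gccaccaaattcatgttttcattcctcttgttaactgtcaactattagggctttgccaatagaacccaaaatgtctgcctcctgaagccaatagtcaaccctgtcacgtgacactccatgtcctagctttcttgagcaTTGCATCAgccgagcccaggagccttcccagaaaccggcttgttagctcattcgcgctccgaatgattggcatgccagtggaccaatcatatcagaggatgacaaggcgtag
Gars promoter, chr6:55037751-55038000, plus strand: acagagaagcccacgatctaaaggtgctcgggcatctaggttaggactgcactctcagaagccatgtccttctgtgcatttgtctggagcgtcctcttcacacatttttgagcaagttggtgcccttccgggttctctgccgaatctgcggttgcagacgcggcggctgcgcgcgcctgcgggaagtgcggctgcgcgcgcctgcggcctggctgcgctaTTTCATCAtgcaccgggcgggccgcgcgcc
Tars promoter, chr15:11399659-11399908, minus strand: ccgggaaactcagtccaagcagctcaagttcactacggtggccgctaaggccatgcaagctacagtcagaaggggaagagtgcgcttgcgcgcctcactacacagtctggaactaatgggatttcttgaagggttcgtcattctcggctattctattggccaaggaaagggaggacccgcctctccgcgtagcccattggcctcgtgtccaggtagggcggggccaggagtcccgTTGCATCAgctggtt
Tars2 promoter, chr3:95754978-95755227, minus strand: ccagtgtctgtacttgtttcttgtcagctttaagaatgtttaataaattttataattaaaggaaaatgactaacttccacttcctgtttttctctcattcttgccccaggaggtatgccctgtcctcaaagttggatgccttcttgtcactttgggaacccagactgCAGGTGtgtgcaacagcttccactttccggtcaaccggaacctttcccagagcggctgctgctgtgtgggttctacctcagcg
Farsa promoter, chr8:84856736-84856985, plus strand: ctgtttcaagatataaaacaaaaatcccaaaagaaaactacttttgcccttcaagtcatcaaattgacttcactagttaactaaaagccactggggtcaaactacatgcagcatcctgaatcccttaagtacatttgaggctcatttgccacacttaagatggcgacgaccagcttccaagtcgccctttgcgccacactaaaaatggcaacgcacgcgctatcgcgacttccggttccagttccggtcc
Farsb promoter, chr1:78488898-78489147, minus strand: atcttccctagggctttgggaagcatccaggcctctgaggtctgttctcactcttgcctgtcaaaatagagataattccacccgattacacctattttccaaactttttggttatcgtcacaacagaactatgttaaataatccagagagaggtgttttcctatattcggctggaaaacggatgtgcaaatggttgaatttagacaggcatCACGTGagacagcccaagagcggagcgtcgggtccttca
The marked motif begins 112 bases before the start in Aars, 30 in Gars, 15 in Tars, 83 in Tars2 and 39 in Farsb. Aars also holds CACGTG, left in lower case, and in Tars the last bases of the marked motif overlap the CAGCTG. A match is a description of these letters only.

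Values are the deposited log2 expression values, and a difference of 1 is a doubling. Their sorted values were nearly identical among the 3 libraries of a group, so the libraries had been equalized within groups by the authors, and the sequencing depth cannot be read from them. Equalization did not extend across groups. The median log2 value was 9.57 in KO and 9.18 in WT in set 5, and 9.66 and 9.25 in set 6. In set 3 it was 9.18 in KO and 9.21 in WT. Each difference is therefore given on the deposited scale and, where it matters, relative to the median gene, which means after subtracting each library's median. Id3 lay between 1.0 and 5.63 in the 9 KO libraries and between 8.85 and 10.08 in the 9 WT libraries, and the KO minus WT difference was −6.76, −5.62 and −5.70 in sets 3, 5 and 6 (SE 0.89, limma adjusted p = 0.000188, 4.99e-05 and 4.84e-05). Of 8 T cell markers 7 were measured, and their summed level was 15.3 to 15.9 in set 3, 16.3 to 16.5 in WT sets 5 and 6 and 16.8 to 17 in KO sets 5 and 6. From WT set 3 to WT set 5, Cd4 and Cd28 fell by 0.34 and 0.44 (limma adjusted p = 0.018 and 0.00161). The other measured T cell markers rose there. All 7 were called higher in KO than in WT in sets 5 and 6, with 2 and 1 left relative to the median gene, and 4 were lower in KO in set 3. Over all genes 50.1% and 53.9% were higher in sets 5 and 6, or 24.9% and 18.8% relative to the median gene. In set 3, 4.46% of all genes were lower. Transcripts of other blood cells were also present. The summed level of 4 erythroid markers was 11.6 to 13.8 in KO set 3 and 8.18 to 9.25 in WT set 3, but 4.2 to 7.08 in sets 5 and 6. In KO set 3 the summed levels of 6 B cell markers and 3 mast cell markers were 7.85 to 10.7 and 7.80 to 8.22, against 5.94 to 7.28 and 3.11 to 5.33 in WT set 3. The B cell sum was also higher in KO in set 5, at 6.84 to 7.05 against 5.50 to 5.78 in WT. In set 6 it was 6.35 to 7.16 in KO and 4.89 to 5.97 in WT. The lowest listed value is 1.0, so a marker near it cannot be told from one at 0. The 4 macrophage markers measured of 5 summed to 9.35 to 9.82 in KO set 5 against 7.24 to 7.65 in WT set 5, and to 10.3 to 10.5 in KO set 6 against 8.43 to 9.35 in WT set 6. Cd68, a lysosomal protein of macrophages that other cells also make, carried most of that sum. Adgre1 (F4/80) averaged 4.41 and 6.34 in KO sets 5 and 6, and Lyz2, a lysozyme abundant in macrophages, averaged 1.38 and 1.03 there. The fourth marker, Itgam, averaged 2.67 and 1.74 in KO sets 5 and 6, against 3.15 and 2.57 in WT. The part of these transcripts in the results below was not tested.

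Per kilobase of the longest annotated transcript, the median log2 level was 10.4 for the cytosolic genes (9.03 to 11.6) and 7.51 for the mitochondrial genes (3.73 to 11.4), averaged over the 6 groups. Dars (aspartate) and Gars were highest at 11.61 and 11.57 log2 per kilobase. Lars2, the mitochondrial leucine enzyme, came next at 11.44, and Cars2 (9.18) and Tars2 (9.10) were the other mitochondrial genes above the lowest cytosolic one. Of the 31-base words of the Lars2 transcript 1.09% also occur in AA474408 or Gm15564. The part of reads from these genes in the Lars2 level was not tested. Neighbours in this order often lay within their spread: the pooled SD within groups was 0.26 for Lars2, 0.10 for Dars and 0.08 for Gars, so the first 3 do not differ beyond it. Mars2, the mitochondrial methionine enzyme, was lowest at 3.73, on an annotated transcript of 11294 bases, and Wars2 (4.98) and Pars2 (5.70) lay next above it. The cytosolic alanine gene Aars was the lowest of its class at 9.03 log2 per kilobase, on an annotated transcript of 5750 bases.

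The first question the design allows is how the synthetases differ between the sets within a genotype. In WT cells most were lower in set 5 than in set 3: 12 of 20 cytosolic genes fell and 2 rose, and 14 of 17 mitochondrial genes fell and none rose. Over all genes tested 38.3% were called lower and 29.3% higher in this comparison on the deposited scale, and 36.8% and 30.5% relative to the median gene, where the members' counts were the same. The median difference was −0.52 for the cytosolic and −0.89 for the mitochondrial genes, and −0.12 over all genes. WT set 6 against the same set 3 libraries gave 13 cytosolic genes lower, 2 higher, and 15 mitochondrial genes lower, with medians of −0.50 and −0.89, where 35.1% of all genes were lower and 32.6% higher (37% and 31.1% relative to the median gene, with 14 cytosolic genes lower and the other counts unchanged). Markers of natural killer cells, CD8 T cells and erythroid cells moved with these comparisons. Of 2 CD8 markers both fell in WT set 5, Cd8a from 8.84 ± 0.29 to 5.09 ± 2.05, and 2 of 3 natural killer markers fell. The part of such cells in the fall was not tested, and in these bulk libraries fewer cells of a type and less RNA per cell cannot be told apart.

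**Figure D1:**
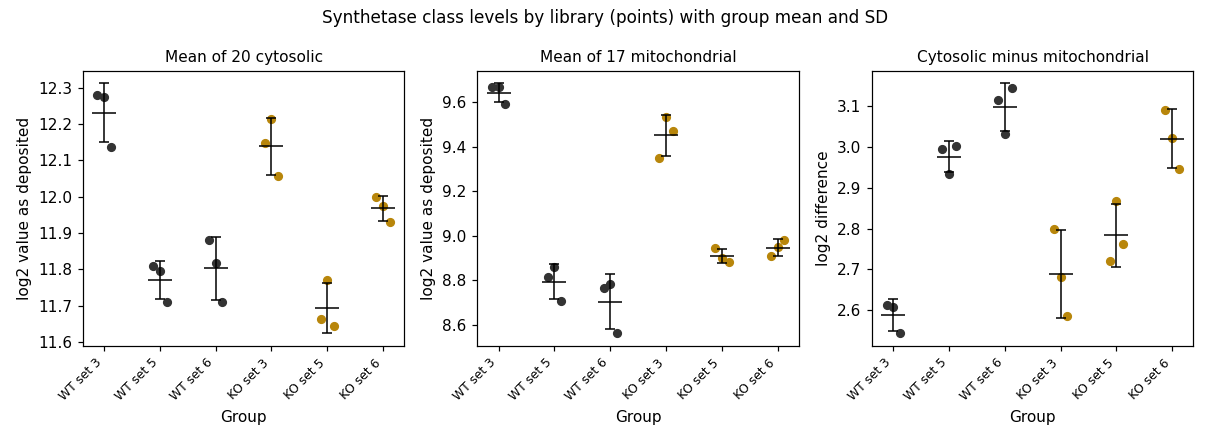
Mean log2 level of the 20 cytosolic and of the 17 mitochondrial synthetases in each of the 18 libraries (points, deposited scale, horizontal bars the group mean), by set and genotype. Both classes lie lower in WT sets 5 and 6 than in WT set 3, and the cytosolic mean of KO set 6 (11.97) lies above that of KO set 5 (11.69).

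Kars, the lysine gene that serves both compartments, measured 13.35, 13.29 and 13.23 in WT set 3 and 12.15, 12.15 and 12.09 in WT set 5. The libraries of the 2 sets were far apart, and the difference was −1.16 (SE 0.07, limma adjusted p = 1.1e-09). In KO cells Kars fell by 1.13 between the same sets (SE 0.07, limma adjusted p = 6.76e-10). Yars2, which charges mitochondrial tyrosine tRNA, measured 10.86, 10.95 and 10.73 in WT set 3 and 9.55, 9.61 and 9.32 in WT set 5. It fell by 1.36 in WT (SE 0.11, limma adjusted p = 3.49e-08) and by 1.63 in KO (SE 0.11, limma adjusted p = 2.49e-09), with no overlap in either genotype. Mars2 measured 8.29, 8.21 and 8.18 in WT set 3 and 6.54, 6.82 and 6.63 in WT set 5, a fall of 1.56 (SE 0.13, limma adjusted p = 3.26e-08). The mitochondrial arginine enzyme Rars2 measured 10.76, 10.79 and 10.55 in WT set 3 and 9.57, 9.61 and 9.46 in WT set 5, a fall of 1.15 (SE 0.10, limma adjusted p = 6.91e-08). The proline enzyme Pars2 fell by 1.79 (SE 0.24, limma adjusted p = 6.28e-06). In all of these the 2 sets were separated without overlap. Among cytosolic genes, Farsa, the catalytic subunit of the phenylalanine enzyme, fell by 1.27 in WT set 5 (SE 0.14, limma adjusted p = 7.11e-07). The tryptophan gene Wars measured 11.62, 11.64 and 11.73 in WT set 3 and 10.81, 10.93 and 10.74 in WT set 5, a fall of 0.84 (SE 0.07, limma adjusted p = 4.39e-08). Mars1, the cytosolic methionine enzyme, measured 12.08, 12.05 and 11.96 in WT set 3 and 11.31, 11.29 and 11.23 in WT set 5, a fall of 0.75 (SE 0.07, limma adjusted p = 6.84e-08).

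The 2 cytosolic genes that rose in WT were Sars, the serine enzyme, and Cars, the cysteine enzyme. Sars measured 12.73, 12.76 and 12.61 in WT set 3 and 13.23, 13.14 and 13.18 in WT set 5, every library of set 5 above every library of set 3. The rise was 0.48 (SE 0.07, limma adjusted p = 2.02e-05), and in WT set 6 it was 0.54 (limma adjusted p = 5.44e-06). Cars measured 10.90, 10.71 and 10.50 in WT set 3 and 11.12, 11.17 and 11.07 in WT set 5, a rise of 0.42 (SE 0.12, limma adjusted p = 0.00743). Aars, Gars, Nars (asparagine), Qars (glutamine), Tars (threonine) and Yars (tyrosine) did not pass the test between WT sets 5 and 3, nor did the mitochondrial Fars2 and Lars2.

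The cytosolic class was also split by membership of the multisynthetase complex, a description with no test. Of its 8 enzymes (Eprs, Iars, Lars, Qars, Mars1, Kars, Rars and Dars) 7 fell and none rose in WT set 5, with a median of −0.73, where 38.3% of all genes fell and 29.3% rose. Of the other 12 cytosolic genes 5 fell and 2 rose, with a median of −0.15. In KO set 5 the medians were −0.89 and −0.29, with 6 of 8 lower and 1 higher against 7 of 12 lower and 3 higher, where 23.4% of all genes were lower and 49.8% higher. All 3 scaffold genes fell in WT set 5: Eef1e1 by 1.52, Aimp2 by 0.93 and Aimp1 by 0.57. Among 11 genes that serve mitochondrial tRNA charging and delivery, 10 fell and none rose in WT set 5 (median −1.02), including Tufm (−1.28), the mitochondrial elongation factor that carries charged tRNA to the ribosome, Tsfm (−1.49), which reloads it, and Trnt1 (−1.41), which adds the CCA end to tRNA. Of 14 genes for cytosolic tRNA delivery and proofreading 12 fell and none rose, with Eef1g, a subunit of the elongation factor that recharges eEF1A, at −1.22.

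In KO cells the fall from set 3 to set 5 was called for 13 cytosolic genes with 4 higher, and for 11 mitochondrial genes with 3 higher, where 23.4% of all genes were lower and 49.8% higher. Relative to the median gene the counts were 16 lower and 1 higher, and 12 lower and 1 higher, with 35.7% and 35.6% of all genes. The median differences were −0.42 and −0.68 on the deposited scale, −0.80 and −1.06 relative to the median gene. For KO set 6 against the same KO set 3 libraries they were 10 lower and 6 higher, and 9 lower and 3 higher (all genes 19.3% and 54%), or 16 lower and 2 higher, and 13 lower and 0 higher, relative to the median gene (35.4% and 35.1%). Farsb, the other subunit of the phenylalanine enzyme, fell most in KO set 5 among cytosolic genes. It measured 12.34, 12.43 and 12.29 in KO set 3 and 10.73, 10.93 and 10.81 in KO set 5, a fall of 1.53 (SE 0.09, limma adjusted p = 3.92e-10). Tars2, which charges mitochondrial threonine tRNA, went the other way: 10.40, 10.65 and 10.83 in KO set 3 and 11.61, 11.23 and 11.48 in KO set 5. It rose by 0.82 (SE 0.12, limma adjusted p = 1.35e-05) and by 0.43 relative to the median gene (adjusted p = 0.0043), while in WT it fell by 0.61 (SE 0.12, limma adjusted p = 0.000288). Sars rose by 0.65 in KO set 5 (SE 0.07, limma adjusted p = 5.68e-07) and by 0.26 relative to the median gene (adjusted p = 0.00385). The deposited-scale rises of Aars (0.31), Qars (0.27) and Hars2 (0.41) in KO set 5 were −0.07, −0.11 and 0.03 relative to the median gene.

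Set 6 was compared with the same set 3 libraries. In WT set 6 Kars measured 12.25, 12.18 and 12.05 (difference −1.12, SE 0.07, limma adjusted p = 1.31e-09), Yars2 9.52, 9.42 and 9.08 (−1.51, SE 0.11, adjusted p = 9.7e-09) and Farsb 11.60, 11.40 and 11.28 (−1.05, SE 0.09, adjusted p = 3.61e-08). In KO set 6 Yars2 measured 9.14, 9.30 and 9.13 (−1.62, SE 0.11, limma adjusted p = 2.68e-09) and Kars 12.24, 12.28 and 12.12 (−0.89, SE 0.07, adjusted p = 9.01e-09). Every one of these libraries lay below all of its set 3 libraries. Sars and Aars rose in KO set 6 on both scales: Sars by 0.89 and, relative to the median gene, 0.41 (limma adjusted p = 1.21e-08 and 8.44e-05), Aars by 0.78 and 0.31 (1.19e-07 and 0.00214). Rars and Nars, which were 0.25 and 0.19 higher in KO set 6 on the deposited scale, were −0.23 and −0.29 relative to the median gene. Across the 37 genes the WT and KO differences between sets 5 and 3 had Pearson's r = 0.79 and Spearman's rho = 0.83, with the same sign for 29, as a description over genes that come from the same libraries.

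**Figure D2:**
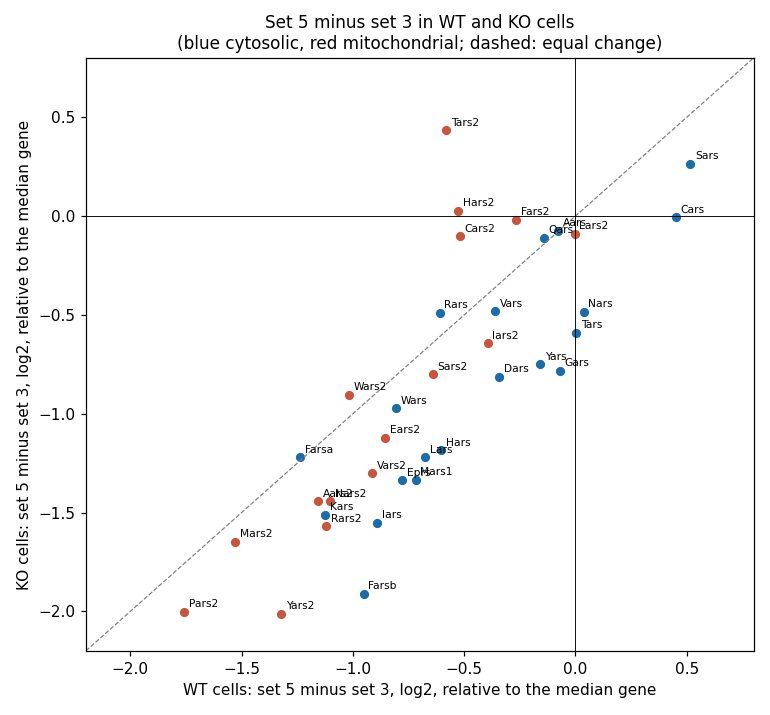
Difference of set 5 from set 3 for the synthetases (log2, 1 gene not shown, relative to the median gene), WT on the horizontal and KO on the vertical axis, cytosolic and mitochondrial genes in separate colours. Most genes lie below 0 on both axes, Sars lies above 0 on both, and Tars2 lies above 0 in KO and below 0 in WT.

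The second question is what the Id3 knockout changed within a set. In set 3 few synthetases were called. Of 20 cytosolic genes 1 was lower and none higher, and no mitochondrial gene was called in either direction by limma, with medians of −0.11 and −0.18, where 4.46% of all genes were lower and 6.92% higher. At an unadjusted p under 0.05 there were 5 cytosolic and 3 mitochondrial genes, and 27.1% of all genes. The authors' deposited table lists no member at an adjusted p under 0.05 in this set. The called gene, Wars, measured 11.62, 11.64 and 11.73 in WT and 11.33, 11.50 and 11.34 in KO, every KO library below every WT library. The difference was −0.28 (SE 0.07, limma adjusted p = 0.0223), and it was not called without KO replicate 1 (limma adjusted p = 0.103), KO replicate 3 (0.0809) or WT replicate 3 (0.0825). Yars was also called relative to the median gene (3.28% of all genes lower, 7.29% higher), 0.29 higher in KO (limma adjusted p = 0.0368). The erythroid, B cell and mast cell transcripts described above differed between the genotypes in the same set, and their part was not tested.

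In set 5 KO and WT cells differed in 9 cytosolic genes (3 higher and 6 lower in KO) and 7 mitochondrial genes (4 higher and 3 lower). On this scale 50.1% of all genes were higher and 8.08% lower. With the median gene as reference 15 cytosolic genes were lower and none higher, and 6 mitochondrial genes were lower and 3 higher, against 24.7% of all genes lower and 24.9% higher. The cytosolic median was −0.15 on the deposited scale and −0.54 relative to the median gene. The mitochondrial median changed sign with the scale, 0.10 and −0.29. On both scales 6 cytosolic genes were lower (Farsb, Gars, Mars1, Iars, Eprs and Nars), 3 mitochondrial genes were higher (Tars2, Cars2 and Hars2) and the mitochondrial genes lower included Rars2 and Yars2. Without KO replicate 3 of set 5 the deposited-scale counts were 5 cytosolic genes higher and 1 mitochondrial gene lower, and the calls of Eprs (limma adjusted p = 0.0777) and Nars (0.0838) were lost. The 3 mitochondrial genes higher relative to the median gene were 1 without KO replicate 1 or WT replicate 1.

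Tars2 had the largest difference of any member in set 5 on the deposited scale. It measured 10.29, 10.46 and 10.29 in WT and 11.61, 11.23 and 11.48 in KO, well separated groups. KO was 1.09 higher (SE 0.12, limma adjusted p = 1.35e-06), and 0.71 higher relative to the median gene (adjusted p = 0.00019). Cars2, for mitochondrial cysteine tRNA, measured 9.72, 9.87 and 9.64 in WT and 10.50, 10.27 and 10.51 in KO, again without overlap. The difference was 0.68 (SE 0.10, limma adjusted p = 1.59e-05) and 0.29 relative to the median gene (adjusted p = 0.0184). Hars2, for mitochondrial histidine tRNA, measured 9.52, 9.88 and 9.81 in WT and 10.73, 10.25 and 10.48 in KO, a difference of 0.75 (SE 0.12, limma adjusted p = 4.03e-05) and 0.36 relative to the median gene (adjusted p = 0.0169). Hars and Hars2 lie side by side, and 5.2% of the 31-base words of the Hars2 transcript also occur in other genes, 4.99% in Hars, so a small part of its reads could be assigned to either. Fars2, the single-chain mitochondrial phenylalanine enzyme, was 0.76 higher on the deposited scale (SE 0.17, limma adjusted p = 0.00104) and 0.37 relative to the median gene (adjusted p = 0.0778).

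Farsb was furthest below WT of the cytosolic genes in KO set 5, on both scales. It measured 11.63, 11.53 and 11.32 in WT set 5 and 10.73, 10.93 and 10.81 in KO set 5, all KO libraries below all WT libraries. On the deposited scale the difference was −0.67 (SE 0.09, limma adjusted p = 1.04e-05) and −1.06 relative to the median gene (adjusted p = 4.55e-07). Gars measured 12.89, 12.89 and 12.76 in WT and 12.48, 12.45 and 12.49 in KO, a difference of −0.37 (SE 0.07, limma adjusted p = 0.000158). Mars1 measured 11.31, 11.29 and 11.23 in WT and 10.87, 10.97 and 10.94 in KO, a difference of −0.35 (SE 0.07, limma adjusted p = 0.000304). For both genes the KO libraries lay below all WT libraries. Among mitochondrial genes Rars2 and Yars2 differed by −0.33 and −0.32 (limma adjusted p = 0.0128 and 0.0269). Rars2 was not called without KO replicate 3 (limma adjusted p = 0.0679), and Yars2 was not called without KO replicate 3 (0.0762), WT replicate 1 (0.0813) or WT replicate 2 (0.106). The deposited-scale differences of Aars (0.37), Rars (0.38) and Qars (0.24) were −0.02, −0.01 and −0.15 relative to the median gene.

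In set 6, 7 cytosolic genes were higher and 1 lower in KO, and 6 mitochondrial genes were higher and none lower, where 53.9% of all genes were higher and 4.59% lower. With the median gene as reference 2 cytosolic genes were higher and 13 lower, and 2 mitochondrial genes were higher and 6 lower, where 18.8% of all genes were higher and 18.5% lower. The medians changed sign with the scale, from 0.10 to −0.31 for the cytosolic and from 0.25 to −0.16 for the mitochondrial genes. Aars, Rars, Cars2 and Tars2 were higher and Farsb was lower on both scales. Of the 2 cytosolic genes higher relative to the median gene, 1 was left when WT replicate 2, WT replicate 3, KO replicate 1 or KO replicate 3 was left out. Aars measured 11.44, 11.46 and 11.38 in WT and 12.06, 12.28 and 12.10 in KO. The groups were far apart, with a difference of 0.72 (SE 0.08, limma adjusted p = 1.34e-06) and 0.31 relative to the median gene (adjusted p = 0.00532). Of the 31-base words of the Aars transcript 22.7% also occur in Exosc6, a neighbouring gene, and whether the counting used strand is not stated. Rars, the cytosolic arginine enzyme, measured 12.07, 11.95 and 11.89 in WT and 12.70, 12.56 and 12.59 in KO, a difference of 0.64 (SE 0.08, limma adjusted p = 4.69e-06) and 0.23 relative to the median gene (adjusted p = 0.0294). Both groups were again apart in every library. Cars2 measured 9.67, 9.48 and 9.56 in WT and 10.50, 10.44 and 10.46 in KO, 0.89 higher (SE 0.10, limma adjusted p = 1.41e-06) and 0.48 relative to the median gene (adjusted p = 0.00109). Tars2 measured 10.11, 10.26 and 10.18 in WT and 11.30, 10.95 and 11.28 in KO, 0.99 higher (SE 0.12, limma adjusted p = 4.61e-06) and 0.58 relative to the median gene (adjusted p = 0.00146). Farsb differed by −0.24 (SE 0.09, limma adjusted p = 0.0329) and by −0.65 relative to the median gene (adjusted p = 6.29e-05). The deposited-scale call of Farsb was lost without KO replicate 2 (limma adjusted p = 0.0697), KO replicate 3 (0.0993), WT replicate 1 (0.177) or WT replicate 2 (0.0539). The authors' deposited table lists Aars, Rars, Cars2 and Tars2 as higher in KO set 6 at an adjusted p under 0.05 and no member as lower. For set 5 it lists Cars2, Fars2, Hars2 and Tars2 as higher, and Farsb among those lower.

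**Figure D3:**
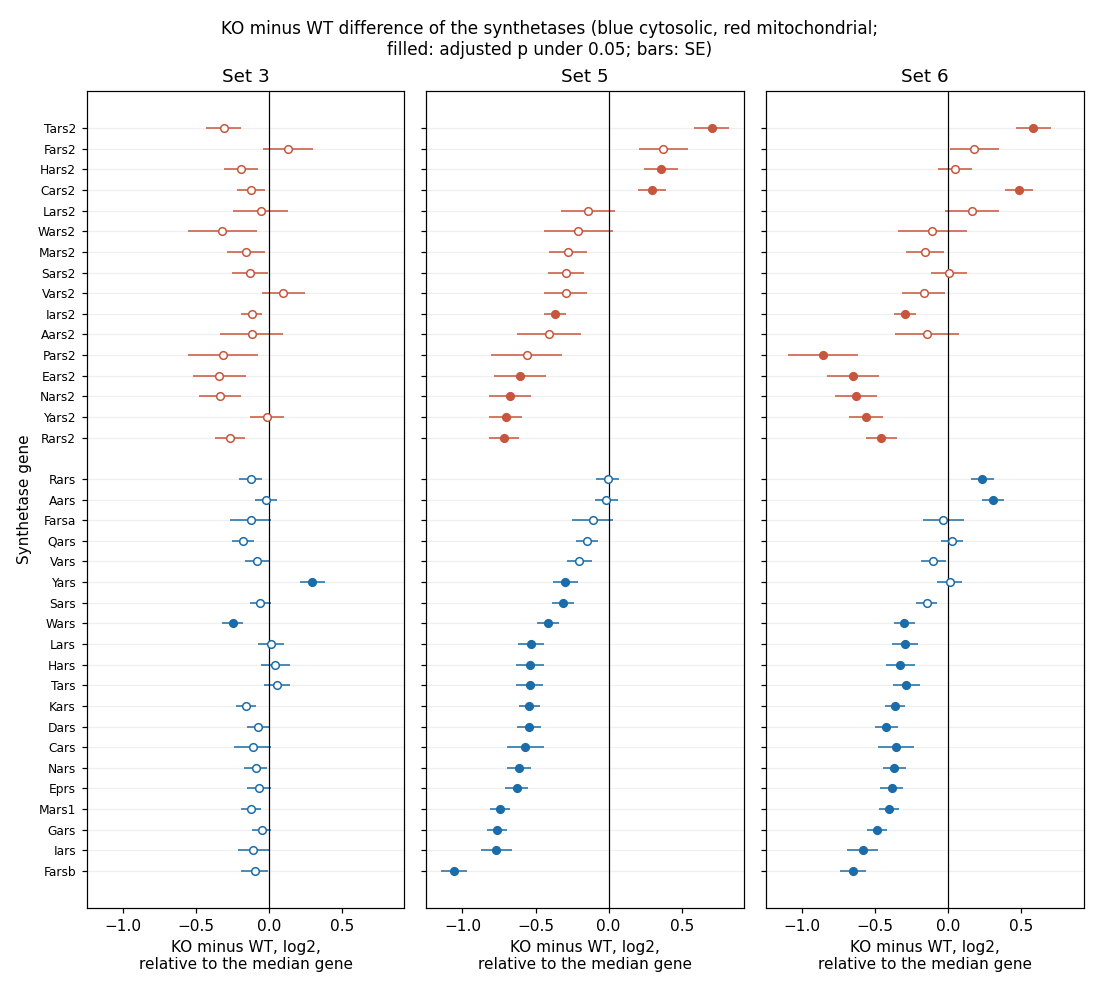
KO minus WT difference of the synthetases in sets 3, 5 and 6 (log2, 1 gene not shown, relative to the median gene), cytosolic and mitochondrial genes apart, filled points where the limma adjusted p is under 0.05. Set 3 has 2 called genes, Wars and Yars, and sets 5 and 6 have most cytosolic genes below 0, with Tars2 and Cars2 above 0 in both (on the deposited scale the cytosolic median of set 6 is above 0, at 0.10).

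The knockout effect in sets 5 and 6 was compared with that in set 3 by an interaction term. Between sets 5 and 3 it was called for 5 cytosolic genes (the effect higher in set 5 for 3 and lower for 2) and 4 mitochondrial genes (all higher), where 43.2% of all genes were higher and 6.82% lower. After subtracting the median gene 12 cytosolic genes were lower and none higher, and 3 mitochondrial genes were higher and 3 lower, where 18.7% and 18.5% of all genes were. Tars2 (1.43), Cars2 (0.83) and Hars2 (0.97) were higher and Farsb (−0.55) and Gars (−0.30) lower on both scales. Between sets 6 and 3 the term was called for 7 cytosolic and 5 mitochondrial genes, all higher, where 46.2% of all genes were higher and 4.11% lower. After subtracting the median gene 2 cytosolic genes (Aars and Rars) and 2 mitochondrial genes (Tars2 and Cars2) were higher, and 5 and 1 were lower, where 12.7% and 11.4% of all genes were. The 2 cytosolic genes higher became 0 or 1 when any 1 of 9 libraries was left out. Both terms use the same set 3 libraries.

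A difference between genes of one library does not change when a constant is subtracted from that library, though the equalization within groups can change it. It was read for the partner genes. The phenylalanine enzyme needs its Farsa and Farsb chains together, and this pair was singled out after its values were seen. Farsa minus Farsb was −0.58 ± 0.02 (SD, n = 3) in WT set 3, −0.87 ± 0.14 in WT set 5 and −0.81 ± 0.05 in WT set 6. In KO cells it was −0.61 ± 0.14 in set 3, 0.08 ± 0.27 in set 5 and −0.19 ± 0.15 in set 6. The deposited value of Farsa was thus below that of Farsb in every WT group, and in KO set 5 the mean of the difference was near 0. Not divided by transcript length, these values compare libraries and not the levels of the 2 genes. The KO minus WT difference was −0.03, 0.95 and 0.62 in sets 3, 5 and 6 (two-sided exact permutation p = 0.9, 0.1 and 0.1, where 0.1 is the smallest p that 3 against 3 allows). Farsa itself measured 10.61, 10.71 and 10.56 in WT set 5 and 10.82, 11.28 and 10.62 in KO set 5, so 2 of its 3 KO libraries lay above the WT libraries. It differed by 0.28 (limma adjusted p = 0.099) and by −0.11 relative to the median gene, against −0.67 and −1.06 for Farsb.

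For 14 amino acids a mitochondrial gene was paired with a single cytosolic gene. Fars2, Ears2 and Pars2 were left out of these pairs, although their cytosolic counterparts (Farsa with Farsb, and Eprs) were measured. The mitochondrial minus cytosolic difference was higher in KO for 8 pairs and lower for 6 in set 5 (median 0.11), and higher for 9 and lower for 5 in set 6 (median 0.17), while in set 3 it lay lower in KO for 13 of 14 (median −0.08). The threonine pair differed most in set 5. Tars2 minus Tars was −1.08 ± 0.14 (SD, n = 3) in WT set 5 and 0.16 ± 0.38 in KO set 5. The deposited value of Tars2 thus lay below that of Tars in WT and near it in KO. These values are not divided by transcript length, so they compare libraries and not the levels of the 2 genes. The arginine pair went the other way, Rars2 minus Rars being −2.32 ± 0.07 in WT set 5 and −3.03 ± 0.04 in KO set 5. Cars2 minus Cars was 0.86 and 0.84 higher in KO in sets 5 and 6, and Hars2 minus Hars 0.90 and 0.37 higher. The direction thus differed between amino acids. With 3 libraries against 3 the exact permutation test, two-sided, cannot give a p below 0.1, which was its value for Tars2 minus Tars in set 5.

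**Figure D4:**
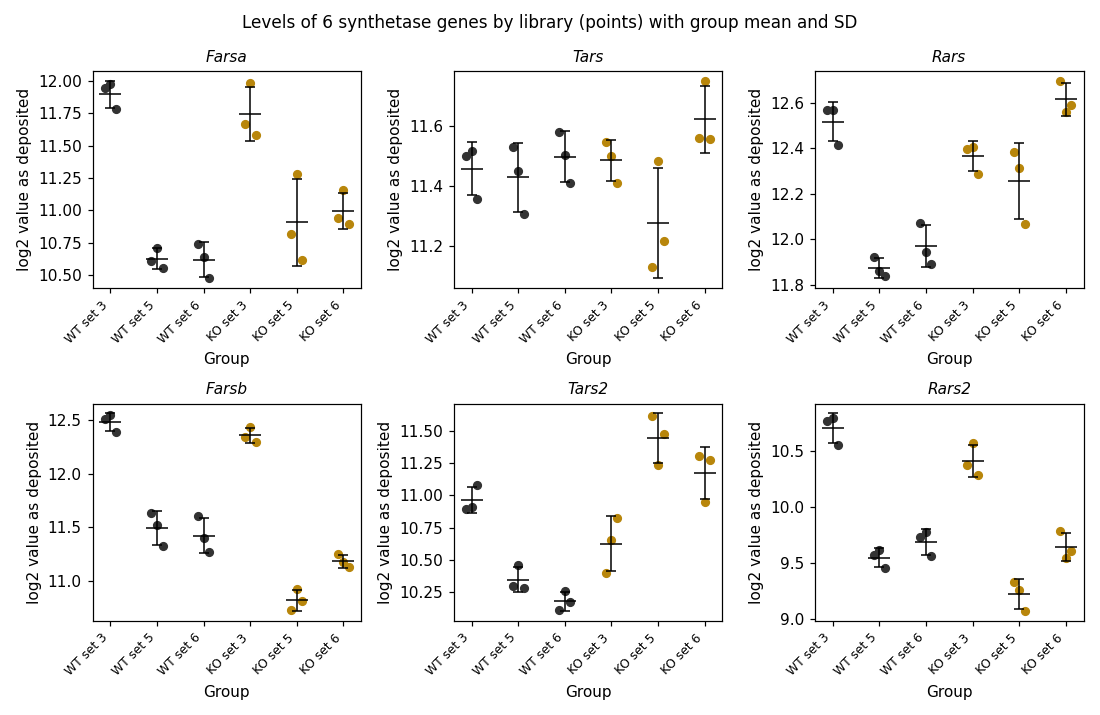
Log2 level (deposited scale) of Farsa, Tars, Rars, Farsb, Tars2 and Rars2 in each library by set and genotype (points), with the group mean and SD. Farsb is lower in KO than in WT in set 5, and Tars2 is higher in KO than in WT in sets 5 and 6. Rars is higher in KO in sets 5 and 6 while Rars2 is not (relative to the median gene Rars differs by −0.0071 in set 5).

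As class means, the cytosolic genes lay above the mitochondrial genes by 2.59 ± 0.04 (SD, n = 3) in WT set 3, 2.98 ± 0.04 in WT set 5 and 3.10 ± 0.06 in WT set 6, a distance that subtracting a constant from a library does not change. In KO cells it was 2.69 ± 0.11, 2.78 ± 0.08 and 3.02 ± 0.07. In set 5 the lowest WT library (2.93) lay above the highest KO library (2.87), whereas the KO libraries of sets 3 and 5 overlapped. These means are not divided by transcript length, so they compare libraries and not the levels of the classes.

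The third question is how set 6 differed from set 5. In WT cells no synthetase was called in either direction on either scale by limma, where 3.01% of all genes were higher and 0.359% lower (1.49% and 0.566% relative to the median gene). None had an unadjusted p under 0.05 on the deposited scale, where 17.9% of all genes had. In KO cells 12 of 20 cytosolic genes rose and none fell, and 1 of 17 mitochondrial genes (Rars2) rose, where 9.93% of all genes were higher and 2.03% lower. With the median gene as reference 3 cytosolic genes rose (Aars, Gars and Mars1) and no mitochondrial gene was called, where 3.87% were higher and 3.64% lower. The cytosolic median was 0.30, and 0.21 relative to the median gene, against 0.01 and −0.08 for the mitochondrial genes. Every KO set 6 library lay above every KO set 5 library for 16 of the 20 cytosolic genes and for 2 of the 17 mitochondrial genes, as it did for 23.1% of all genes. In WT cells that share was 20.9% of all genes.

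Aars measured 11.62, 11.77 and 11.62 in KO set 5 and 12.06, 12.28 and 12.10 in KO set 6, without overlap. It rose by 0.48 (SE 0.08, limma adjusted p = 0.00174) and by 0.38 relative to the median gene (adjusted p = 0.00991). Gars measured 12.48, 12.45 and 12.49 in KO set 5 and 12.85, 12.83 and 12.85 in KO set 6, a rise of 0.37 (SE 0.07, limma adjusted p = 0.00324). Mars1 measured 10.87, 10.97 and 10.94 in KO set 5 and 11.28, 11.30 and 11.31 in KO set 6, also a rise of 0.37 (SE 0.07, limma adjusted p = 0.00327). Gars and Mars1, which were lower in KO than in WT in set 5, lay within the range of the WT libraries in set 6 on the deposited scale: Gars measured 12.97, 12.99 and 12.80 and Mars1 11.44, 11.28 and 11.16 in WT set 6. Relative to the median gene both were still lower in KO than in WT in set 6, Gars at −0.49 (limma adjusted p = 5.41e-05) and Mars1 at −0.41 (adjusted p = 0.000279). The other 9 cytosolic genes that rose did so by 0.24 (Kars) to 0.36 (Rars and Farsb). Rars2 rose by 0.42 (SE 0.10, limma adjusted p = 0.0171), and by 0.33 relative to the median gene (adjusted p = 0.0669). The count of 12 rested on single libraries: it was 3 without KO set 5 replicate 3, 6 without KO set 5 replicate 1, 5 without KO set 6 replicate 1 and 7 without KO set 6 replicate 2. With a replicate block within the genotype, since equal replicate numbers of sets 5 and 6 deviated together, 17 cytosolic genes rose and none fell, and 2 mitochondrial genes rose and 1 fell. The block with the median gene as reference gave 10 cytosolic and 1 mitochondrial gene higher, and 1 mitochondrial gene lower. The authors' deposited table calls no member between these sets in either genotype. The summed level of the macrophage markers, mostly Cd68, was 9.35 to 9.82 in KO set 5 and 10.3 to 10.5 in KO set 6. None of these markers was called by limma between the 2 sets. Cd68 and Adgre1 differed by 0.75 and 1.93, and Itgam and Lyz2 by −0.93 and −0.35. The part of these transcripts was not tested.

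**Figure D5:**
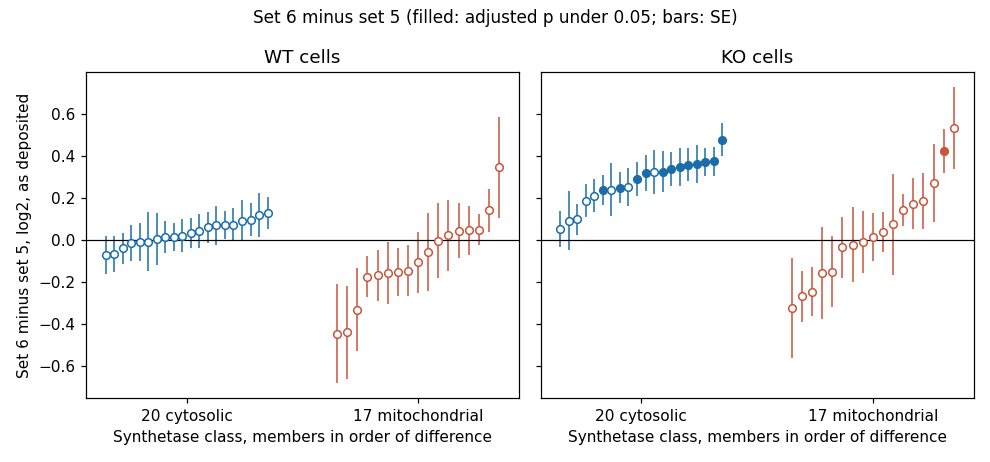
Set 6 minus set 5 difference of each synthetase (log2, deposited scale) in WT and in KO cells, bars the standard error, filled points where the limma adjusted p is under 0.05. In KO cells 12 cytosolic genes and Rars2 are filled, all above 0, and in WT cells none is.

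The genes around the synthetases were read from lists, with the same test, and the shares of all genes called stand beside each comparison. Of 24 genes of the ATF4 and amino acid response, 16 rose and 4 fell in WT set 5 against set 3, among them Trib3 (4.23), a pseudokinase induced by stress, and Pck2 (1.87), a mitochondrial gluconeogenic enzyme. Of all genes 29.3% rose and 38.3% fell in that comparison. The mitochondrial serine enzyme Shmt2 fell by 0.75. In KO cells 14 rose and 4 fell (13 and 5 relative to the median gene), where 49.8% of all genes rose and 23.4% fell (35.6% and 35.7%). In KO against WT 5 rose and none fell in set 3, including Asns (1.34), the asparagine synthetase of metabolism, where 6.92% of all genes were higher and 4.46% lower. In set 5, 7 were higher and 6 lower (4 and 14 relative to the median gene), where 50.1% of all genes were higher and 8.08% lower (24.9% and 24.7%). Ddit3, a stress transcription factor whose gene adjoins Mars1, was 1.27 higher and Atf5 1.16 higher, whereas Psat1, an enzyme of serine synthesis, was −0.64 and Trib3 −1.2. Between KO sets 6 and 5, 8 rose and none fell (2 and none relative to the median gene), where 9.93% of all genes rose and 2.03% fell (3.87% and 3.64%). They included Cebpg (0.65), the dimer partner of ATF4, Phgdh (0.47) and Aldh18a1 (0.31), which make serine and proline precursors. In WT none was called between these sets by limma, where 3.01% of all genes were higher and 0.359% lower. In set 6, 10 were higher and 2 lower in KO, or 5 and 6 relative to the median gene, where 53.9% of all genes were higher and 4.59% lower (18.8% and 18.5%).

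Of 12 amino acid transporters 7 were higher and 4 lower in KO set 5 (4 and 6 relative to the median gene). The counts for KO against WT in set 5 in this paragraph stand against 50.1% of all genes higher and 8.08% lower, or 24.9% and 24.7% relative to the median gene. The neutral amino acid carriers Slc38a2 and Slc38a1 were 0.75 and 0.59 higher, and Slc7a5, the large neutral amino acid exchanger of activated T cells, was −0.52. In KO set 6 against set 5, 4 transporters rose and none fell, where 9.93% of all genes rose and 2.03% fell. Of 14 genes for eIF2 kinases and mTORC1 amino acid sensing, a list that includes the member Lars, 11 were higher and none lower in KO set 5, and 6 and 2 relative to the median gene. Of 7 genes for Myc and its partners 3 were higher and 2 lower in KO set 5. The Myc antagonists Mxd4 and Mnt were at 1.45 and 1.16, Mxd1 at 0.70, Myc at −0.48 and Mycn at −1.16. The call of Myc lay at the threshold (limma adjusted p = 0.04999), and its KO and WT libraries overlapped. Relative to the median gene Myc was at −0.87 (limma adjusted p = 0.00203). Relative to the median gene Max (−0.32) and Mlx (−0.29) were also lower, and Mxd1 was no longer called. Myc itself fell by 1.03 from WT set 3 to WT set 5. In that comparison Max (−1.17) and Mnt (−0.88) fell as well, while Mycn (2.70), Mxd1 (1.23) and Mlx (0.65) rose. Of the 11 partners of mitochondrial tRNA charging 2 were higher and 1 lower in KO set 5: Mtfmt, which formylates the initiator methionine tRNA, was 0.76 higher, Qrsl1 was 0.48 higher and Gatc was −0.77, the last 2 being subunits of the amidotransferase that makes mitochondrial glutamine tRNA. Relative to the median gene 1 was higher (Mtfmt, 0.37) and 5 were lower. Of the scaffold genes Aimp2 and Eef1e1 were lower in KO set 5 (−0.90 and −0.57) and Aimp1 was 0.25 higher, a call that was lost relative to the median gene.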

How the data were processed

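RNA-seq of 18 libraries was used, 3 for each of 6 groups (Id3 knockout or wild-type, in 3 sets). Per the submitters' processing notes, Salmon 1.9.0, edgeR, limma and the genome build GRCm39 were used, with no role or order given. The authors deposited log2 expression values for 12547 genes. Tested on the file, 97 to 98.4% of sorted values were equal (tolerance 1e-09) among the 3 libraries of a group but not between groups, so depth is unknown and the spread between replicates may be compressed. The authors also deposited tables of their own comparisons, with log2 fold changes, a moderated t (a score, 0 for small folds, so it tests against a minimum fold) and p-values, per the file headers. The levels per kilobase, shared words and promoters came from GENCODE M21 and RefSeq tables on GRCm38 builds.

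Groups were compared with limma 3.58.1 in R 4.3.3 on the deposited values, with 6 group means, 12 residual degrees of freedom, a variance trend and Benjamini-Hochberg adjustment over all genes (threshold 0.05), and again after subtracting each library's median. Members and lists were chosen with earlier results of these data known. Values per library were given to the members with the smallest adjusted p per class and direction, to members called against most of their class, and to pairs chosen after their values were seen. No GC, length or batch correction was made. A member, counted in the totals, is not reported here by name. The fit was tested on simulated data. Replicate numbers were checked for pairing: within a genotype, equal numbers of sets 5 and 6 deviated together (r 0.22 to 0.34 in KO and 0.12 to 0.16 in WT, other numbers −0.25 to −0.03), a hint from the data. In the other pairs of groups r between equal numbers ranged from −0.0813 to 0.177, and in none was every r over 0.1. Alternatives were centring, quantile normalization, a replicate block, the compared groups only, 1 added on the linear scale, a mean log2 of at least 6, a minimum fold of 1.2, no variance trend and leaving out each library.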

Additional observations from a re-analysis of the deposited data

Results flagged for a closer look

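The knockout effect (KO minus WT) differed between sets for the following genes, by an interaction term in limma over 18 libraries, on the deposited log2 scale and with 3 libraries in each group. Between sets 5 and 3 the difference of effects was 1.43 for Tars2, 0.97 for Hars2, 0.83 for Cars2, 0.66 for Fars2, 0.53 for Rars, 0.44 for Qars, 0.42 for Aars, −0.30 for Gars and −0.55 for Farsb. Relative to the median gene Tars2 (1.02), Hars2 (0.55), Cars2 (0.42), Gars (−0.71) and Farsb (−0.96) were still called in that comparison.

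Between sets 6 and 3 it was 1.33 for Tars2, 1.04 for Cars2, 0.80 for Rars, 0.77 for Aars, 0.68 for Hars2, 0.66 for Lars2, 0.64 for Qars, 0.57 for Sars2, 0.53 for Farsa, 0.42 for Vars, 0.39 for Wars and 0.35 for Sars. Relative to the median gene Tars2 (0.89), Cars2 (0.60), Rars (0.36) and Aars (0.33) were still called. Of the 2 cytosolic calls among these, 0 or 1 was left when any 1 of 9 libraries was left out. The mitochondrial count stayed at 2 whichever library was left out. Both comparisons use the same set 3 libraries, in which transcripts of erythroid, B and mast cells differed between the genotypes, and the part of these was not tested.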

How the results depend on the processing

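Counts are of synthetases called by limma, cytosolic before mitochondrial. Adding 1 on the linear scale and dropping the variance trend left all 44 counts within 1.5 times. Relative to the median gene (median centring), counts moved to 1 cytosolic gene higher in KO in set 3, to 0 higher and 15 lower with 6 mitochondrial lower in set 5, and to 2 higher and 13 lower with 2 higher and 6 lower in set 6. They moved to 1 and 1 higher in KO set 5 against 3, to 2 higher, 16 lower and 0 mitochondrial higher in KO set 6 against 3, and to 3 and 0 higher in KO set 6 against 5. For the interaction of sets 5 and 3 they moved to 0 higher, 12 lower and 3 mitochondrial lower, and for sets 6 and 3 to 2 higher and 5 lower, and 2 higher and 1 lower. Quantile normalization gave the values of centring except 0 cytosolic lower in set 3, 8 mitochondrial lower in set 5, 13 and 4 lower for the interaction of sets 5 and 3, and 1 higher and 7 lower cytosolic for sets 6 and 3. The cause was not tested.

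Medians that changed sign under centring and quantile normalization were, in KO against WT, the mitochondrial one in set 5 (−0.29 and −0.38), the cytosolic (−0.31 and −0.32) and mitochondrial (−0.16 and −0.22) ones in set 6, the cytosolic one of WT set 6 against 5 (−0.0469 and −0.0281), the mitochondrial one of KO set 6 against 5 (−0.0844 and −0.11), the mitochondrial interaction of sets 5 and 3 (−0.24 and −0.29), and the cytosolic (−0.28 and −0.30) and mitochondrial (−0.0248 and −0.0738) interactions of sets 6 and 3. Genes that changed sign under both were, in KO against WT, Aars (−0.0165 and −0.00742) and Qars (−0.15 and −0.14) in set 5, and Farsa (−0.0348 and −0.0547), Vars (−0.10 and −0.11) and Sars (−0.15 and −0.16) in set 6. Rars in set 5 did so under centring (−0.0071). In KO set 5 against 3 they were Cars (−0.00672 and −0.0173), Aars (−0.0738 and −0.0587), Qars (−0.11 and −0.0906) and Cars2 (−0.10 and −0.12), and in KO set 6 against 3 Rars (−0.23 and −0.22), Nars (−0.29 and −0.27) and Cars2 (−0.16 and −0.17). Of the interactions of sets 6 and 3 they were Vars (−0.0227 and −0.0597), Wars (−0.051 and −0.10) and Sars (−0.0866 and −0.12), and Aars for sets 5 and 3 under quantile normalization (−0.00882).

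A minimum fold of 1.2 left 0 cytosolic genes lower in set 3, 0 higher and 1 lower with 1 mitochondrial lower in set 5, 2 higher and 0 lower with 2 mitochondrial higher in set 6, 1 cytosolic higher in WT sets 5 and 6 against 3, 1 and 1 higher in KO set 5 against 3, 1 mitochondrial higher in KO set 6 against 3, 0 and 0 in KO set 6 against 5, and 1 higher and 0 lower cytosolic and 3 and 3 higher for the 2 interactions. With centring as well, it left 0 and 0 cytosolic in set 3, 1 mitochondrial higher in set 5, 0 higher and 3 lower with 0 and 0 mitochondrial in set 6, 1 cytosolic higher in WT sets 5 and 6 and KO set 6 against 3, 0 and 0 higher in KO set 5 against 3, 0 in KO set 6 against 5, 6 cytosolic lower with 1 mitochondrial higher and 0 lower for the interaction of sets 5 and 3, and 0 and 0 with 1 and 0 for sets 6 and 3. Fitting the compared groups only gave 0 cytosolic lower in sets 3 and 6, and 4 and 0 higher in KO set 6 against 5. A mean log2 of at least 6 gave 5 cytosolic higher for the interaction of sets 5 and 3.

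The replicate block gave 1 cytosolic gene higher and 2 lower, and 1 mitochondrial gene lower, in KO against WT in set 3, and 5 cytosolic higher for the interaction of sets 5 and 3. It changed none of the 161 called genes. With centring the replicate block gave 1 mitochondrial lower in set 3, 9 and 1 higher in KO set 6 against 5, and 10 cytosolic lower for the interaction of sets 6 and 3. The block within each genotype over sets 5 and 6 gave, for KO set 6 against 5, 2 mitochondrial higher and 1 lower, with centring 10 and 1 higher and 1 mitochondrial lower, and for WT 1 mitochondrial lower with centring. These blocked and the centred leave-one-out values were chosen after seeing the data.

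Leaving out each library in turn lost 81 gene calls, kept 885 and reversed none. It gave 0 to 1 cytosolic higher, 0 to 1 lower and 0 to 1 mitochondrial lower in set 3 (also relative to the median gene), 2 to 5 cytosolic higher and 1 to 4 mitochondrial lower in set 5 (1 to 4 mitochondrial higher relative to the median gene), and 0 to 1 cytosolic and 0 to 1 mitochondrial lower in set 6 (1 to 2 cytosolic higher relative to the median gene). In WT set 6 against 3 it gave 1 to 2 cytosolic higher relative to the median gene (1 without WT set 3 replicate 3). In KO set 6 against 5 it gave 3 to 12 cytosolic higher and 0 to 2 mitochondrial higher and 0 to 1 lower, with 0 to 4 cytosolic higher and 0 to 2 mitochondrial lower relative to the median gene, 0 cytosolic without KO set 5 replicate 3. It gave 3 to 5 cytosolic higher for the interaction of sets 5 and 3 (5 without KO set 3 replicate 2 or KO set 5 replicate 3), and 0 to 2 higher, 2 to 8 lower and 0 to 1 mitochondrial lower for sets 6 and 3 relative to the median gene (8 lower without WT set 6 replicate 3). Medians that changed sign were the cytosolic one of WT set 6 against 5 (−0.000296 to 0.0808, relative to the median gene −0.0746 to 0.00655), the mitochondrial one of KO set 6 against 5 (−0.0127 to 0.0681) and the mitochondrial interaction of sets 6 and 3 relative to the median gene (−0.11 to 0.0385). The list counts moved by over 1.5 times in 99 cases under centring (253 kept), 110 under quantile normalization (242 kept), 93 under the minimum fold (259 kept) and 17 under the block (335 kept). Depth is unknown, so differences of low genes such as Mars2 and Wars2 cannot be weighed against counting error.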

Other observations

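Genes that act beside the synthetases inside mitochondria had their own values. Of 12 genes for mitochondrial translation 9 fell and 1 rose in WT set 5 against set 3, where 38.3% of all genes fell and 29.3% rose, among them Lrpprc (−1.51), which stabilises mitochondrial mRNA, and Gfm1 (−1.32), a mitochondrial elongation factor. In KO cells 8 fell and 3 rose, and 9 and 1 relative to the median gene, where 23.4% and 49.8% of all genes did, and 35.7% and 35.6% relative to the median gene. In KO against WT 4 were higher and 2 lower in set 5, and 7 and 1 in set 6, which became 1 and 6, and 0 and 3, relative to the median gene. Of all genes 50.1% were higher and 8.08% lower in set 5, and 53.9% and 4.59% in set 6, or 24.9% and 24.7%, and 18.8% and 18.5%, relative to the median gene. Of the 13 protein-coding genes of the mitochondrial genome, whose mRNAs these enzymes serve, 8 fell and 1 rose in WT set 5 against set 3. None was called by limma between KO and WT in set 3, where 6.92% of all genes were higher and 4.46% lower. In KO set 5, 6 were higher and none lower than in WT, but 0 and 3 relative to the median gene, against the same shares of all genes in set 5. Poly(A) selection captures such mRNAs through their short tails.

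Some synthetase transcripts share sequence with other genes, taken as 31-base words of the longest GENCODE M21 transcript found on either strand of another gene's transcripts. Iars2 shares 36.8% of its words, all with Rab3gap2, Farsb shares 11% and Hars 8.42%, and 14 of the 37 share none. How the deposited values split such reads was not tested.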
